A study of Drosophila melanogaster with 5 samples.

Results

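The genes described here were expressed in every control ovary library and were all but absent from both libraries of ovaries carrying a BEAF-32-AB knockout. BEAF-32 is an insulator protein of Drosophila melanogaster that binds near promoters. Members were chosen on read counts scaled to CPM, the share of the library total times 1000000: at least 10 CPM in each of 3 control libraries and under 1 CPM in each of 2 knockout libraries. Genes named as chorion proteins, vitelline membrane proteins, yellow-family genes, Femcoat, histones, mitochondrial genes or noncoding RNAs were left out by the start of their symbol. Of 14094 genes in the table, 27 met the rule, and a further 13 met it but were left out by name. All 27 are protein-coding in the annotation, while CR14033 and CR43482, annotated as pseudogenes, were among those left out by name. Because the rule used both groups and all 5 libraries, the difference between the groups in these genes is a description and carries no test.

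Ovaries were dissected 1 to 3 days after eclosion from adults whose genotype is given as BEAF 32-AB KO (2 libraries) and from a line given as nosGAL4;MKRS/TM6 and titled wild type (3 libraries). The driver nosGAL4 expresses the yeast activator GAL4 in the germline, and MKRS and TM6 are balancers of the third chromosome. The knockout label names neither, so stock differences and the alteration of BEAF-32 cannot be told apart. RNA came from whole ovaries, in which fewer cells of a type and less RNA per cell cannot be told apart. The labels do not say whether libraries of a group came from separate flies, so the p-values below measure the spread between these libraries, which may be technical.

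A Drosophila egg chamber holds a germline cyst wrapped in a layer of somatic follicle cells. In the second part of oogenesis the follicle cells secrete the eggshell, first the vitelline membrane and then the chorion, together with enzymes that process and crosslink it. Genes for these products are switched on late and for a short time. The ovary also carries muscle, tracheal and oviduct tissue around the egg chambers.

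Library totals were 38820176 and 47805964 estimated counts for the knockout and 41105107, 8448850 and 10388643 for the controls. One CPM was 38.8 and 47.8 counts in the knockout libraries and 41.1, 8.45 and 10.4 counts in the controls, so every member rested on at least 123 counts in each control. BEAF-32 itself was at 50.2 and 52.8 CPM in the knockout libraries, against 84.9, 136 and 144 CPM in the controls, and which part of the gene is altered is not given in the labels. Across all 9241 genes tested with edgeR's quasi-likelihood test, 1729 (18.7%) were called lower and 2102 (22.7%) higher in the knockout, 41.5% in all, with the Benjamini-Hochberg adjusted p set to be under 0.05. Leaving out knockout 1 cut the lower calls to 403 and leaving out knockout 2 to 440, and leaving out control 1 raised them to 2731. The higher calls were 475 without knockout 1, 591 without knockout 2 and 3352 without control 1. For the neighbours and lists below, counts with a library left out therefore belong beside these left-out totals, not beside 18.7% and 22.7%. Among the 6033 genes with at least 10 CPM in each control, 26.3% were called lower. Control 1 stood apart from controls 2 and 3: the transcript of the trypsin gene alphaTry, a gut marker, was at 23.8 CPM in it and at 0 counts in the other controls.

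Together the 27 genes took 0.000500% and 0.000721% of the counts of the knockout libraries and 0.518%, 0.576% and 0.521% of those of the controls. Their median level was 0.0773 and 0.209 CPM in the knockout libraries, against 95.4, 124 and 94.4 CPM in the controls. In counts, all 27 genes together gave 194 and 345 in the knockout libraries and 213094, 48705 and 54168 in the controls. CG15571 had 0 counts in both knockout libraries, and the other 26 kept at least 1 count in one of them. Folds below are ratios of the group means of CPM, except for genes with 3 or fewer knockout counts. For CG31926 and CG14187 the control mean was set against the knockout counts pooled over both libraries. For CG15571 a pooled floor of 3 counts took their place. Of the 24 genes with more than 3 knockout counts, 13 were at least 1000-fold lower in the knockout, the median was 1188-fold and the range 17.6-fold to 5657-fold.

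**Figure D1:**
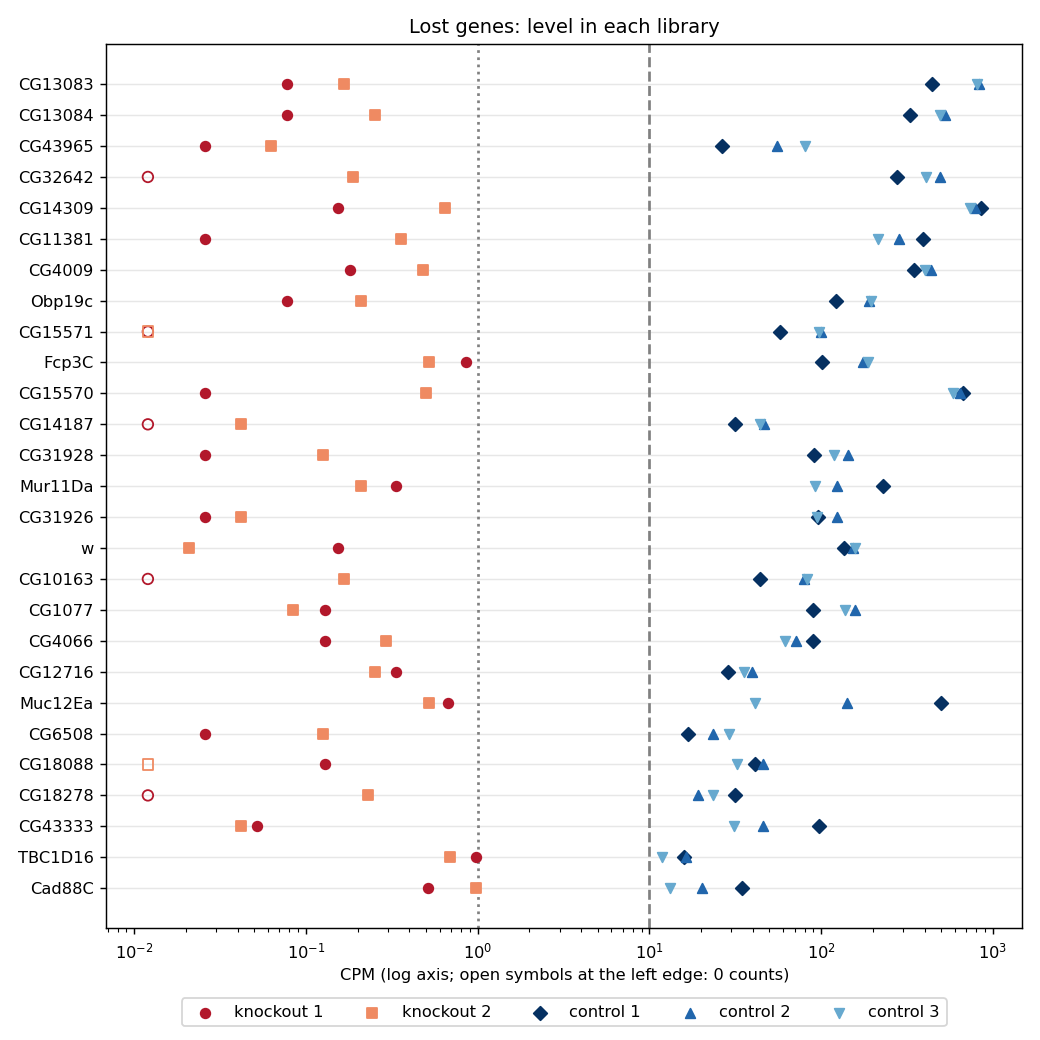
CPM of each of the 27 lost genes in each library on a log axis, from the highest mean control level per kilobase at the top to the lowest at the bottom. Filled symbols are single libraries, open symbols at the left edge are libraries with 0 counts, the dotted line is the 1 CPM limit of the rule and the dashed line the 10 CPM limit. The knockout points reach 0.983 CPM at most (Cad88C) and the control points start at 11.8 CPM (TBC1D16).

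Genes named for follicle cells or for mucins were among the lost genes. Fcp3C (FBgn0000644, X, 3173376 to 3174474, minus strand, dm6) encodes follicle cell protein 3C. It was at 0.850 and 0.523 CPM in the knockout libraries, against 102, 176 and 186 CPM in the controls, 225-fold lower in the knockout. Among the lost genes it kept one of the highest knockout levels, with 33 and 25 counts. Mur11Da and Muc12Ea encode mucin-like proteins, a class of secreted proteins rich in sugar chains. Mur11Da was at 0.335 and 0.209 CPM in the knockout libraries, against 229, 124 and 91.5 CPM in the controls (545-fold lower). Muc12Ea was at 0.670 and 0.523 CPM in the knockout libraries, against 501, 141 and 41.1 CPM in the controls (382-fold lower). Controls 1 and 3 differed far more in Muc12Ea than in other members, and its coefficient of variation was 106%. The encoded protein is the longest of the set at 3321 residues.

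Secreted enzymes and binding proteins formed a further group. CG31928, CG31926 and CG6508 encode aspartic proteases of the pepsin type, which cut other proteins. CG31928 was at 0.0258 and 0.126 CPM in the knockout libraries, against 90.3, 144 and 119 CPM in the controls (1556-fold lower). CG31926 was at 0.0258 and 0.0418 CPM in the knockout, which is 3 counts in all, and 95.4, 123 and 94.4 CPM in the controls. Its ratio was 3012-fold, with a 95% exact Poisson interval for the knockout counts of 1031-fold to 14606-fold. CG6508 was at 0.0258 and 0.126 CPM in the knockout libraries, against 16.8, 23.4 and 28.9 CPM in the controls (305-fold lower).

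Other genes of the same protease family, picked after the levels of these members had been seen and therefore given here with no test, did not all follow. CG31661 was at 0.670 and 1.69 CPM in the knockout libraries, against 52.3, 76.6 and 65.8 CPM in the controls, just outside the rule. CG33128 was low everywhere, at 0.0258 and 0 CPM in the knockout libraries, against 0.730, 2.01 and 0.770 CPM in the controls. The lysosomal protease gene cathD ran the other way, at 295 and 357 CPM in the knockout libraries, against 137, 165 and 151 CPM in the controls. Bace was at 0.129 and 0.272 CPM in the knockout libraries, against 23.5 CPM in control 1 and 0 counts in the other controls. CG17134, CG5860 and CG5863 stayed under 1 CPM in all 5 libraries.

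CG4009 encodes a heme peroxidase, an enzyme class that crosslinks proteins. It was at 0.180 and 0.481 CPM in the knockout libraries, against 348, 435 and 405 CPM in the controls, 1197-fold lower, and the 3 controls lay close together. Obp19c belongs to the odorant-binding proteins, small secreted carriers first known from antennae. It was at 0.0773 and 0.209 CPM in the knockout libraries, against 122, 191 and 194 CPM in the controls (1179-fold lower). CG10163 is annotated with a lipase-type protein and was at 0 and 0.167 CPM in the knockout libraries, against 44.1, 79.5 and 82.3 CPM in the controls (820.5-fold lower). In all 3 genes the knockout level was higher in knockout 2 than in knockout 1.

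The most abundant members per length of transcript have no name beyond their CG number, as have 20 of the 27. On the scale of mean control CPM per kilobase of exon, CG13083 led with 604, followed by CG13084 with 291, CG43965 with 279.5, CG32642 with 278 and CG14309 with 236. CG13083 (FBgn0032789, 2L, 19487490 to 19488691, plus strand) was at 0.0773 and 0.167 CPM in the knockout libraries, against 439.7, 829 and 807 CPM in the controls, 5657-fold lower. CG13084 was at 0.0773 and 0.251 CPM in the knockout libraries, against 328, 528 and 491 CPM in the controls (2736-fold lower). In both genes control 1 was below the other controls. CG32642 was at 0 and 0.188 CPM in the knockout libraries, against 278, 493 and 408 CPM in the controls (4174-fold lower). CG14309 was at 0.155 and 0.648 CPM in the knockout libraries, against 850.5, 786 and 734 CPM in the controls (1967-fold lower), with control 1 the highest. CG43965, a gene of 193 exon bases, was at 0.0258 and 0.0628 CPM in the knockout libraries, against 26.5, 55.2 and 80.2 CPM in the controls (1219-fold lower on 4 knockout counts).

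Further members known by number were CG11381, CG15571, CG15570 and CG14187. CG11381 was at 0.0258 and 0.356 CPM in the knockout libraries, against 392, 285 and 216 CPM in the controls (1559-fold lower). CG15570 was at 0.0258 and 0.502 CPM in the knockout libraries, against 668, 639.85 and 589 CPM in the controls (2397-fold lower). Its neighbour CG15571, with no knockout count, was at 57.4, 99.2 and 97.7 CPM in the controls. Against a floor of 3 counts over both knockout libraries, 0.0346 CPM, CG15571 was at least 2447-fold lower. CG14187 was at 0 and 0.0418 CPM in the knockout, 2 counts in all, and 31.6, 46.8 and 44.0 CPM in the controls. That is a ratio of 1766-fold with a counting interval of 489-fold to 14583-fold. CG12716 was at 0.335 and 0.251 CPM in the knockout libraries, against 28.9, 39.5 and 35.6 CPM in the controls (118-fold lower), with all 3 controls close together. The remaining members known by number were CG1077, CG4066, CG18088, CG18278 and CG43333, at mean control levels of 24.8 CPM (CG18278) to 128 CPM (CG1077) and 217-fold (CG18278) to 1241-fold (CG43333) lower in the knockout.

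The members w, Cad88C and TBC1D16 encode proteins with known work outside the eggshell. The white gene, w (FBgn0003996, X, 2790599 to 2796466, minus strand), encodes a transporter of eye pigment precursors. It was at 0.155 and 0.0209 CPM in the knockout libraries, against 136, 153 and 158 CPM in the controls, 1698-fold lower. Its controls lay within 7.66% (coefficient of variation, n = 3), where the median member had 24.996%. Mutant w alleles and w-marked transgenes are common in laboratory stocks, and the labels give the w allele of neither line, so a stock difference at w and an effect of the knockout cannot be told apart.

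Cad88C encodes a cadherin, a cell adhesion protein, and TBC1D16 a protein with the TBC domain of Rab GTPase-activating proteins. Cad88C was at 0.515 and 0.983 CPM in the knockout libraries, against 34.4, 20.1 and 13.2 CPM in the controls, 30.1-fold lower. TBC1D16 was at 0.979 and 0.690 CPM in the knockout libraries, against 15.8, 16.3 and 11.8 CPM in the controls, 17.6-fold lower. These were the only members under 100-fold and also had the lowest control level per kilobase, 3.35 and 5.06 CPM. With Fcp3C and Muc12Ea they gave 45.8% of all knockout counts of the 27 genes.

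CG18278 encodes a sulfatase-type protein and was the only member whose counts were not all whole numbers (within 0.01), as arises where an estimate divides reads among genes. It was at 0 and 0.228 CPM in the knockout libraries, against 31.5, 19.3 and 23.6 CPM in the controls. Its paralog CG30059 was at 12.5 and 14.2 CPM in the knockout libraries, against 6.501, 1.46 and 5.85 CPM in the controls, so how reads were divided between them is uncertain. Exons of 7 members overlap an exon of a gene on the opposite strand, and the strand setting of the counting is not given in the sources used here. For CG43965 all 193 exon bases lie under CG6511, which was at 37.9 and 36.5 CPM in the knockout libraries, against 60.2, 49.5 and 32.2 CPM in the controls. For TBC1D16 the overlap was 430 bases with TfIIB, which was at 40.1 and 50.2 CPM in the knockout libraries, against 50.4, 60.7 and 78.7 CPM in the controls.

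The limits of the rule cut through a graded set of genes. TBC1D16, Cad88C and CG6508 had the lowest control libraries inside the rule, at 11.8, 13.2 and 16.8 CPM. CG7381, Nha1 and CG11892 missed it with a lowest control of 9.51, 9.15 and 9.11 CPM. On the knockout side, Ilp8 missed the rule with 0.927 and 1.004 CPM in the knockout against 16.5, 23.1 and 28.01 CPM in the controls. Ilp8 encodes a relaxin-like peptide. The next were zyd, a calcium exchanger gene, with a higher knockout library at 1.02 CPM and amd, known for a part in cuticle formation, at 1.19 CPM.

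Among 6033 genes with at least 10 CPM in each control, 40 (0.663%) had both knockout libraries under 1 CPM. A further 11 had their higher knockout library from 1 to under 2 CPM, 44 from 2 to under 5 CPM and 186 from 5 to under 10 CPM, and 5752 (95.3%) reached 10 CPM. The counts pass the 1 CPM limit with no gap. In the reverse direction, 43 genes of the whole table had at least 10 CPM in both knockout libraries and under 1 CPM in each control. The 13 genes left out by name were Cp15, Cp16, Cp19, Cp7Fa, Cp7Fc, Vm26Ac, Vm32E, yellow-g, yellow-g2, Femcoat, His2B:CG17949, CR14033 and CR43482. They took 0.000239% and 0.000479% of the counts of the knockout libraries and 0.519%, 1.0036% and 0.904% of those of the controls.

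**Figure D2:**
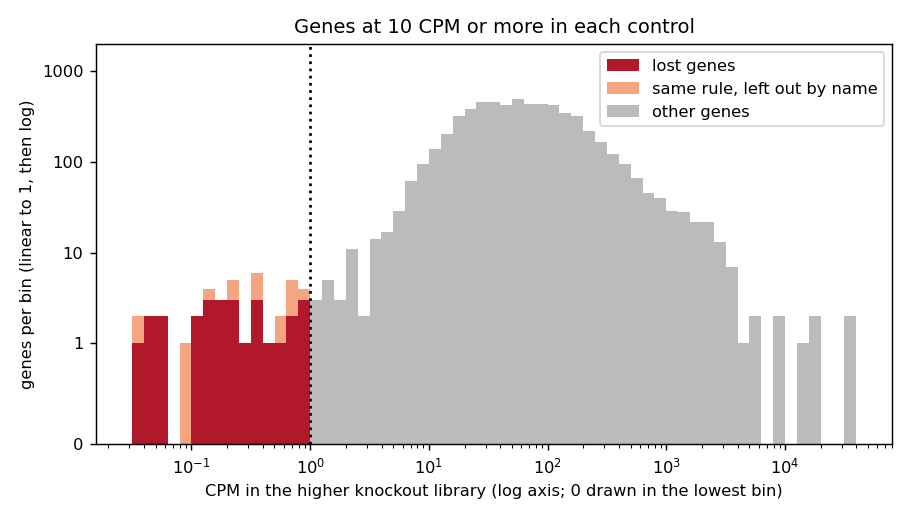
Number of genes by CPM in the higher of the 2 knockout libraries (log axis), for the 6033 genes with at least 10 CPM in each control. The vertical axis is linear to 1 gene and logarithmic above, and the dotted line is the 1 CPM limit. The 27 lost genes and the 13 left out by name lie left of it, and the bins go on without a gap to its right.

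The 3 controls did not place the members in the same order. Control 1 was the lowest control for 15 of 27 members (55.6%) and the highest for 9 (33.3%). Among 5993 other genes with at least 10 CPM in each control, it was the lowest for 48.2% and the highest for 39.5%. The ratio of control 1 to the mean of controls 2 and 3 had a median of 0.829 over the members and 0.957 over the other genes. It was at least 1.5 for 5 members: Muc12Ea (5.51), CG43333 (2.52), Mur11Da (2.13), Cad88C (2.07) and CG11381 (1.57). It lay at or below the inverse of 1.5 for 10 members, lowest for CG43965 (0.392), CG13083 (0.537), CG10163 (0.545) and Fcp3C (0.562). The median coefficient of variation among the controls was 24.996% for the members and 17.2% for the other genes. Controls 2 and 3 were also the shallow libraries, so depth and any other difference from control 1 cannot be told apart here.

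**Figure D3:**
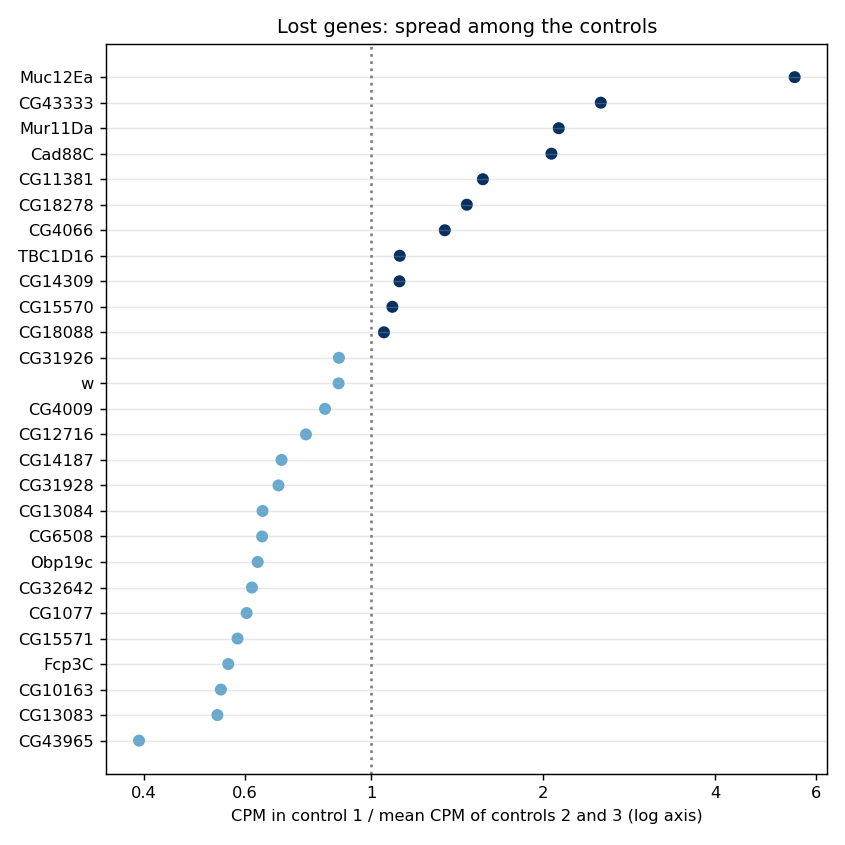
CPM in control 1 divided by the mean CPM of controls 2 and 3 for each lost gene (log axis), sorted, with dark points above 1 and light points below. The ratios run from 0.392 for CG43965 to 5.51 for Muc12Ea.

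The knockout libraries differed as well. Knockout 2 was above knockout 1 for 17 of 27 members (63.0%), against 75.1% of the other control-expressed genes. The largest ratios rested on a single count in knockout 1: CG15570 had 1 and 24 counts in knockout 1 and 2, and CG11381 had 1 and 17. CG14309 had 6 and 31. In the other direction w had 6 counts in knockout 1 and 1 in knockout 2.

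Position and gene structure were not used by the rule directly. The names it left out do include clustered genes, such as Cp15, Cp16 and Cp19 on 3L. The arm shares below therefore hold only for members after that filter, and the low share on 3L depends on it. By the Ensembl annotation of the dm6 coordinates, 10 of 27 members (37.0%) lie on X and 8 (29.6%) on 2L, against 15.7% and 18.5% of 13725 annotated protein-coding genes in the table. On 3R lay 5, on 3L 3 and on 2R 1, where the shares of all genes were 24.7%, 19.8% and 20.5%. Members had short gene models: the median gene span was 1657 bases, against 2995 bases for 5954 other protein-coding genes with at least 10 CPM in each control. A single annotated transcript was listed for 20 members (74.1%), against 35.7% of those other genes, and the median longest protein was 454 residues, against 490. Over all 13725 protein-coding genes the median span was 2177 bases and 49.1% had a single transcript. Their median longest protein was 396 residues, shorter than that of the members. The figures for the members come from a small set and carry no test.

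Of the 27 genes, 9 lay in runs with at most 1 other protein-coding gene between members. Runs were not counted for other sets of genes, so whether 9 is unusual was not tested. CG31928 and CG31926 lie on the plus strand of 2L within 1492295 to 1497071, with CG33128 between them. CG13084 and CG13083 follow each other on the plus strand of 2L within 19484930 to 19488691, 957 bases apart. CG15571 and CG15570 are transcribed away from each other on X within 4216873 to 4223331, with 775 bases between them. CG32642, Mur11Da and CG12716 lie within 12959220 to 12976231 on X. In the first 2 pairs control 1 was below control 2 in all 4 genes, but for CG31926 it was at 95.4 CPM, beside 94.4 CPM in control 3. In the divergent pair control 1 was at 0.583 times the mean of the other controls for CG15571 and at 1.09 times for CG15570. Some members also lie near genes left out by name: CG43965 is 2706 bases from Cp15 in the chorion gene cluster of 3L, and CG15570 is 18555 bases from Femcoat.

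The nearest protein-coding gene on each side that did not itself meet the CPM rule gave 46 distinct neighbours, 33 of them tested. In the knockout 11 of the 33 (33.3%) were lower and 4 (12.1%) higher by edgeR at an adjusted p under 0.05, where 18.7% and 22.7% of all tested genes were. The neighbours' median log2 fold change, knockout minus control, was 0.08, against 0.11 for all tested genes. Without knockout 1 or without knockout 2 the neighbours gave 4 lower and 1 higher, and without control 1 13 lower and 9 higher. Over all tested genes too, calls fell without a knockout library and rose without control 1. The depth class fit, which has deep or shallow library as a term, gave 12 lower and 7 higher. Controls 2 and 3 were the only shallow libraries, so that fit set both knockouts against control 1 alone.

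Among the lower neighbours were eggshell genes. Cp18, a chorion protein gene 1016 bases from CG43965, was at 1.73 and 2.01 CPM in the knockout libraries, against 1195, 1802 and 1467 CPM in the controls. CG31661, the protease gene 171 bases from CG31926, changed by -5.73 (SE 0.45, adjusted p = 0.000756 by edgeR). Muc4B, a mucin gene 20763 bases from the CG15571 pair, was at 1.75 and 1.78 CPM in the knockout libraries, against 307, 207 and 135 CPM in the controls (-6.90, SE 0.49, adjusted p = 0.000633 by edgeR). Neighbours that rose were Ldh, lactate dehydrogenase, 344 bases from CG10163 (4.00, SE 0.42, adjusted p = 0.00167 by edgeR), cona, a synaptonemal complex gene, and CG10195. The calls of cona (adjusted p = 0.0834 and 0.0897 by edgeR) and CG10195 (adjusted p = 0.1105 and 0.0909 by edgeR) were lost without knockout 1 or knockout 2.

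CG32795 and CG15721 were picked as further neighbours after their values had been seen. The edgeR values given for them are therefore descriptions and no evidence about neighbours in general. CG32795 lies 31 bases from w and was at 13.0 and 14.0 CPM in the knockout libraries, against 49.5, 81.3 and 84.0 CPM in the controls (-2.36, SE 0.28, adjusted p = 0.00228 by edgeR). CG15721, between Mur11Da and CG12716, was at 18.4 and 17.9 CPM in the knockout libraries, against 185, 123 and 62.5 CPM in the controls (-2.73, SE 0.49, adjusted p = 0.00839 by edgeR). Its call was lost without knockout 1 (adjusted p = 0.0822 by edgeR) or knockout 2 (adjusted p = 0.0822 by edgeR).

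Other genes of the eggshell list fell only in part. This list of 18 genes, mostly of the eggshell and its assembly, was drawn up with earlier results of these data known. It held the members Fcp3C, Mur11Da and Muc12Ea. Of the other 15, 14 were tested, 8 were lower and 4 higher, beside 18.7% lower and 22.7% higher among all tested genes, and the median log2 fold change was -1.23 against 0.11. Muc4B, counted above as a lower neighbour, is among these 8 lower genes. The higher genes were Cad99C (1.28, SE 0.25), pip (1.52, SE 0.40), wbl (1.01, SE 0.22) and tsl (1.57, SE 0.49). Of these, pip and tsl were at low mean control levels, 3.32 and 2.47 CPM. The eggshell protein gene dec-1 was at 140 and 143 CPM in the knockout libraries, against 5222, 4182 and 3733 CPM in the controls (-4.91, SE 0.26, adjusted p = 0.000389 by edgeR), so it fell but stayed well above the limit of the rule. The same held for psd, a vitelline membrane gene (-2.90, SE 0.27), and Pxt, a peroxidase-related gene of follicle cells (-3.76, SE 0.39). The protease ndl and fs(1)M3, a vitelline membrane gene, were not called (0.11, adjusted p = 0.901, and -1.06, adjusted p = 0.0527, by edgeR). Leaving out knockout 1 or knockout 2 gave 4 lower and 0 higher, and leaving out control 2 or control 3 gave 0 and 1 higher.

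**Figure D4:**
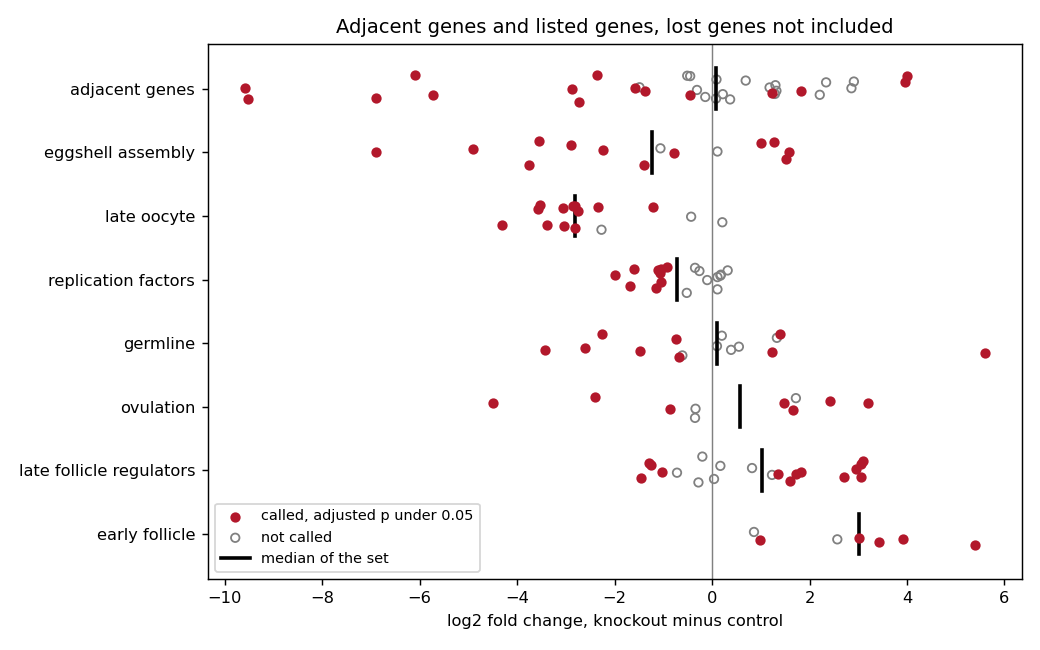
Log2 fold change, knockout minus control, of the 33 tested neighbours and of the tested genes of each list, lost genes not included. Each point is a gene, filled red at an adjusted p under 0.05 by edgeR and open otherwise, and the black bar is the median of the set. The late oocyte genes centre at -2.82 and the early follicle cell genes at 3.01.

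Of 20 tested regulators of the follicle cells that make the eggshell, 9 rose, 4 fell and 7 were not called, with a median of 1.03. Among all tested genes 22.7% were higher and 18.7% lower, so the share of lower calls was near the background. The zinc finger gene peb (hindsight) was at 391 and 338 CPM in the knockout libraries, against 53.7, 32.9 and 45.0 CPM in the controls (3.10, SE 0.27, adjusted p = 0.00096 by edgeR). The EGF receptor antagonist gene kek1 rose (1.83, SE 0.22). The ecdysone receptor partner gene usp fell (-1.46, SE 0.15), as did the nuclear receptor gene Hr39 (-1.25, SE 0.16), whose call was lost without knockout 1 (adjusted p = 0.0510 by edgeR). The uncalled bun (0.17) and ttk (0.04) had the highest levels among those not called. Leaving out knockout 1 gave 3 higher and 1 lower, leaving out knockout 2 gave 4 and 2, and leaving out control 2 or control 3 gave 5 higher.

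Replication factors used in chorion gene amplification, the local copying of chorion genes in follicle cells, had 9 of 18 genes lower and 0 higher, with a median of -0.72, beside 18.7% lower and 22.7% higher among all tested genes. Orc1 (-2.0, SE 0.16), the cyclin gene CycE (-1.60, SE 0.16) and Orc6 (-1.68, SE 0.22) fell. Cdc45 fell too (-1.05, SE 0.16), but not without knockout 1 (adjusted p = 0.0806 by edgeR) or knockout 2 (adjusted p = 0.0642 by edgeR). Dp (0.11) and chif (0.17) were not called. With control 1 left out 11 were lower and 2 higher, where all tested genes gave 2731 lower and 3352 higher. Fewer were lower with a knockout library left out, as over all tested genes. At an unadjusted p under 0.05, and with DESeq2, 0 were higher. The germline uses these factors as well.

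Genes of ovulation, which follows the last stage of the follicle, had 3 of 10 lower and 4 higher and a median of 0.57, beside 18.7% lower and 22.7% higher among all tested genes. Besides Ilp8 (-4.49, SE 0.35), Sod3, an extracellular superoxide dismutase, fell to 57.1 and 80.7 CPM in the knockout, against 325, 414 and 378 CPM in the controls. The matrix protease gene Mmp2 (3.19, SE 0.27) and its inhibitor gene Timp (1.66, SE 0.15) rose, and Itpr and Nox were not called. Leaving out knockout 1 or knockout 2 gave 2 lower and 3 higher.

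Genes of early follicle cells were higher or not called. Of 7 tested early follicle cell genes 5 rose and 0 fell, with a median of 3.01, beside 22.7% higher and 18.7% lower among all tested genes, and wg and en had too few counts to test. At an unadjusted p under 0.05 as well, and with DESeq2, 0 fell. The eyes absent gene eya was at 183 and 167 CPM in the knockout libraries, against 16.2, 20.6 and 13.7 CPM in the controls (3.43, SE 0.22, adjusted p = 0.000516 by edgeR). The adhesion gene Fas3 was at 298 and 309 CPM in the knockout libraries, against 48.8, 32.3 and 34.4 CPM in the controls (3.01, SE 0.24). The calls of tj and cas were lost without knockout 1 (adjusted p = 0.0709 and 0.0832 by edgeR) or knockout 2 (adjusted p = 0.0712 and 0.0750 by edgeR). The call of upd1 was lost in both cases too, and 2 genes were then called higher. With control 1 left out 6 were higher.

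In the germline, 12 of 15 late oocyte genes were lower and 0 higher, beside 18.7% and 22.7% of all tested genes, with a median of -2.82, or 11 lower with knockout 1 or knockout 2 left out. At an unadjusted p under 0.05, and with DESeq2, 0 were higher. The called genes of smallest p were CycB (-3.03, SE 0.19), twe (-3.07, SE 0.20), swa (-2.75, SE 0.18) and mtrm (-4.32, SE 0.28), while pum (0.21) and stau (-0.43) were not called. Of 15 general germline genes 6 were lower and 3 higher, with a median of 0.10, beside 18.7% lower, 22.7% higher and a median of 0.11 among all tested genes. Here nos (-3.43, SE 0.23) and bam (-2.26, SE 0.19) fell. The GAL4 driver of the controls carries nos sequence, and whether it adds reads to nos was not tested. The call of otu (-2.60) was lost without knockout 1 (adjusted p = 0.0502 by edgeR). The bam partner gene bgcn was higher (5.61, SE 0.92), but not without knockout 1 (adjusted p = 0.0524 by edgeR) or knockout 2 (adjusted p = 0.0769 by edgeR). Transcripts of osk and orb, the most abundant of those not called, remained at 673 to 839 CPM and 688 to 730 CPM in the knockout, against 865 to 1617 CPM and 375 to 714 CPM in the controls. Germline calls dropped to 2 lower and 0 higher without knockout 1 and to 3 and 0 without knockout 2, and the higher ones were 1 without control 2 and 6 without control 1.

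Summed markers of several other tissues were higher in the knockout while the 27 genes were lost, and their part in the result was not tested. Among all tested genes 22.7% were higher and 18.7% lower, and the called counts below stand beside these shares. The 1 of 4 for neuron is near the higher share, and the 1 of 3 for fat body is a single gene. Muscle markers summed to 4768 to 4795 CPM in the knockout libraries, against 398 to 757 CPM in the controls, with 8 of 9 tested genes higher (7 to 9 with 1 library left out). Hemocyte markers summed to 202 to 236 CPM in the knockout libraries, against 7.12 to 17.3 CPM in the controls (2 of 4 tested higher, 1 without knockout 1 or knockout 2), almost all of it from Pxn, while NimC1 and He were near 0 everywhere. Fat body markers summed to 108 to 171 CPM in the knockout libraries, against 31.5 to 52.7 CPM in the controls (1 of 3 tested higher, 0 without knockout 1). Neuron markers summed to 21.5 CPM in each knockout library and 5.89 to 8.76 CPM in the controls (1 of 4 tested higher, 0 without knockout 1). Spermatheca markers summed to 5.06 to 13.9 CPM in the knockout and were at 0 counts in the controls (1 of 1 tested higher, 0 without knockout 1). Testis markers summed to 7.01 to 8.66 CPM in the knockout libraries, against 0.473 to 2.12 CPM in the controls (2 of 2 tested higher, 0 without knockout 1 or knockout 2), with nht, dj and ProtA at 0 counts in every library. Here too single genes gave most of the knockout sums. They were apolpp for fat body (124 and 94.2 CPM) and elav for neuron (19.9 and 19.6 CPM). For spermatheca it was Send1 (13.7 and 4.87 CPM) and for testis mia (6.03 and 8.33 CPM). The neuron marker brp ran lower and was not called (-2.71, SE 0.98). Gut markers summed to 1.11 to 1.27 CPM in the knockout and to 34.9 CPM in control 1, with 0 counts in the other controls. Of 2 tested, 0 were called by edgeR, 0 at an unadjusted p under 0.05 and 0 by DESeq2. With depth class as a term 1 was lower, in a fit that set the knockouts against control 1 alone.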

How the data were processed

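Total RNA from dissected adult ovaries was made into directional libraries, per the labels' protocols. Salmon 1.2.1, STAR 2.7.5b, FastQC 0.11.8, Trim Galore 0.6.6 and the dm6 build are named in the submitters' processing notes, with no order or settings. The table as deposited holds estimated counts for each gene, not normalized, in 5 libraries, and 3.21% to 4.26% of values per library were not whole within 0.01. Groups came from the sample titles: 2 knockout and 3 control libraries. Between replicates the lowest chi-square per degree of freedom was 12.9, so no library was a copy of another.

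CPM used column totals. Annotation was Ensembl 115 on dm6 coordinates, with 14048 of 14094 gene identifiers matched. Counts were rounded, filtered with filterByExpr (9241 genes) and scaled with TMM (factors 0.941 to 1.03), and knockout minus control was tested with edgeR 4.0.16 (glmQLFit robust, glmQLFTest) in R 4.3.3, Benjamini-Hochberg adjusted over all genes tested. DESeq2 1.42.0, other scalings, no filter, a depth class term, the replicate number as a block and leaving out each library were alternatives. On simulated counts for the same 5 libraries, edgeR recovered 71 of 100 planted 4-fold changes and 8 of 100 planted 2-fold changes. It made 10 false calls among the genes with no planted change. Only the planted genes differed in the simulation, while 41.5% of the genes tested were called in the data. The adjusted p limit was thus stricter in the simulation, and its recovery does not measure that in the data. A gene that was not called may still differ by 2-fold or more. A floor of 3 counts and 95% exact Poisson intervals cover counting error only. The members, gene lists and tests were chosen with earlier results of these data known. The named genes were the 15 lost genes with the highest control level per kilobase, those with a symbol other than a CG number, those in a run of 3 and those next to the limits. CG10163, CG18278, the neighbours CG32795 and CG15721 and the higher genes of the eggshell list were added after their values were seen. Each list gave at most 4 called genes of smallest p and 2 uncalled ones of highest CPM, and the adjacent genes the 3 lower and 3 higher ones of smallest p. No sequence was used here.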

Additional observations from a re-analysis of the deposited data

How the results depend on the processing

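The number of lost genes was 42 with a control minimum of 5 CPM, 23 with 20 CPM, 21 and 36 with knockout limits of 0.5 and 2 CPM, and 28 to 34 with 1 library left out. TMM-scaled CPM gave 28, of which 26 were among the 27, with Ilp8 and zyd gained and TBC1D16 lost. Leaving out 1 library moved the counts of all genes called lower to between 403 and 2731 and higher to between 475 and 3352. It moved the lower calls of adjacent genes to 4 to 13, of eggshell assembly genes to 4 to 9, of follicle regulators to 1 to 4, of replication factors to 3 to 11, of ovulation genes to 2 to 3, of early follicle genes to 0, of germline genes to 2 to 6 and of late oocyte genes to 11 to 12. With the replicate block, 1496 genes were lower and 1765 higher, and lower calls were 9 for adjacent genes, 8 for eggshell assembly, 4 for follicle regulators, 9 for replication factors, 2 for ovulation, 0 for early follicle, 4 for germline and 12 for late oocyte genes. Same-numbered libraries deviated together only weakly (correlations 0.058 and 0.047). The deviations of 2 knockout libraries from their mean mirror each other, so this check cannot exclude a shared preparation. DESeq2 gave 2159 lower and 2456 higher, and the depth class term 2384 and 2669. Of 66 alternatives that removed no library, 65 stayed within 1.5 times the reported count. They cover the number of lost genes, the calls over all genes and the lower calls of the lists. Not all of them used every library in the contrast. With the depth class term, controls 2 and 3 were the only shallow libraries, so the contrast set both knockouts against control 1. In the replicate block, control 3 stood alone in its block and added nothing to the contrast. Some higher calls moved more: adjacent genes from 4 to 7 with the depth class term, eggshell assembly genes from 4 to 2 with the replicate block, testis markers from 2 to 1 with DESeq2, no filter or the replicate block, and with DESeq2 fat body markers from 1 to 3 and neuron markers from 1 to 2, with 1 neuron marker lower. The hydropathy and promoter window alternatives were not run, since no sequence was used here. Depth limits controls 2 and 3, where 3 counts are 0.355 and 0.289 CPM, while in the other libraries they are 0.0628 to 0.0773 CPM. The causes of these shifts were not tested.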
